A study of Arabidopsis thaliana with 12 samples.

Results

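Aux/IAA and GH3 genes of Arabidopsis thaliana were examined, chosen by family membership. They were the 29 Aux/IAA genes and 7 GH3 genes, namely GH3.1 to GH3.6 and GH3.17. These 36 genes stood among 33602 genes counted in every library, and 33 of them (26 Aux/IAA and all 7 GH3) were abundant enough to be tested. Floral buds and open flowers of 3 genotypes had been sequenced as 150-nt paired-end RNA-seq, with 2 libraries for each of the 6 groups. The ask1 plants carried a Ds transposon insertion in ASK1, the gene of a SKP1-like adaptor in SCF ubiquitin ligases. The ASK1 WT plants carried the wild-type ASK1 allele, and Col-0 was the standard laboratory accession; all 3 genotypes bore the strain label Col-0. Plants were grown in 16 h light and 8 h dark, and primary inflorescences were harvested 5 h after dawn. No label said that the replicates of a group came from separate plants, so the p-values below measure only the spread between these samples. Whole buds and whole flowers were used, so fewer cells of a type and less RNA per cell cannot be told apart.

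Aux/IAA proteins are short-lived repressors that sit on auxin response factors (ARFs) at the promoters of auxin-responsive genes, together with TOPLESS-type corepressors. Auxin joins an Aux/IAA protein to a TIR1/AFB F-box protein, which docks on SKP1-like ASK1 in an SCF ligase; the repressor is then ubiquitinated and degraded, and the ARF is freed. Most Aux/IAA genes and several GH3 genes are themselves ARF targets, and GH3 enzymes join auxin to amino acids, so that both families form feedback loops on the response. Transcript levels were measured here, not protein levels.

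The element that TIR1/AFB proteins recognise is the degron in domain II of Aux/IAA proteins. Its conserved core of glycine, tryptophan and a pair of prolines was encoded in 23 of the 29 Aux/IAA genes, and was not found in IAA20, IAA30, IAA31, IAA32, IAA33 or IAA34. The degron codons of 3 genes that were lower in ask1 and of 1 that was higher are shown because they carry the same core, whose codons are in capitals. They are written 5′ to 3′ on the coding strand of the TAIR10.1 assembly (RefSeq), at chr4:8349472-8349510 (minus strand) for IAA14, chr3:5264304-5264342 (plus strand) for IAA19, chr1:1136935-1136973 (plus strand) for IAA17 and chr4:14324648-14324686 (minus strand) for IAA27.
IAA14: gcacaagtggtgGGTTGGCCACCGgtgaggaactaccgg
IAA19: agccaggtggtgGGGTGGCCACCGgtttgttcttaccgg
IAA17: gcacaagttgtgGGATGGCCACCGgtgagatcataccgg
IAA27: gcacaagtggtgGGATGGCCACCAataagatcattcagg

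ARFs bind auxin response elements, of which TGTCTC is the classical form. In a window of 250 bases before to 50 bases after the annotated gene start, searched on both strands, 12 of 29 Aux/IAA promoters (41.4%) and 4 of 7 GH3 promoters (57.1%) held TGTCTC, against 14.2% of 27443 protein-coding genes. The variant TGTCGG was present in 6 of 29 Aux/IAA promoters (20.7%) and in none of the 7 GH3 promoters, against 5.12% of all genes. The 250 bases before the start are printed below for IAA19, which held the most copies, for GH3.3, which held 1, and for IAA14, which held none and fell about as far as IAA19 in ask1 buds. Capitals mark TGTCTC, which began at positions -184, -145 and -128 in IAA19 and at -116 in GH3.3, where -1 is the base just before the start. The stretches are written 5′ to 3′ on the gene's own strand and lie at chr3:5263751-5264000 on the plus strand, and at chr2:9866563-9866812 and chr4:8350264-8350513 on the minus strand, in TAIR10.1.
IAA19: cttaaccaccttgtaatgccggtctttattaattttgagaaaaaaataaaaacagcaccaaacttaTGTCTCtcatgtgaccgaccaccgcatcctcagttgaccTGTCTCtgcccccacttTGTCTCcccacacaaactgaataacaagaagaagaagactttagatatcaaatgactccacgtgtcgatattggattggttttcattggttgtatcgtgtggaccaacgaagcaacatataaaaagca
GH3.3: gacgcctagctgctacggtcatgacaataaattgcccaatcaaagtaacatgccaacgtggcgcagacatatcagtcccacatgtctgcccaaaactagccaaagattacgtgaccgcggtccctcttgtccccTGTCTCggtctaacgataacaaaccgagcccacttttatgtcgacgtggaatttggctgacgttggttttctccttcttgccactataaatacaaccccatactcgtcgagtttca
IAA14: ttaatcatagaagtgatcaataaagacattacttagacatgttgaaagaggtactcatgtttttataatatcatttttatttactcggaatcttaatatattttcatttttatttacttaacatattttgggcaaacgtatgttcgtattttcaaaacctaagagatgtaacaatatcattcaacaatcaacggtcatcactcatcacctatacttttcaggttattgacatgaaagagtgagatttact

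The 12 libraries held 13780265 to 23426466 counts in genes, and the limit that 0 counts allows (3 counts) was 0.135 to 0.203 CPM (counts scaled to library size) depending on the library; these floors cover counting error only. ASK1 itself stood at 10.1 and 29.1 CPM in ask1 buds and 50.9 and 29.6 CPM in ask1 open flowers, against 247 to 310.3 CPM in the 8 control libraries. Each library was set against the mean of the control libraries of its tissue, leaving out the library itself. On this relative scale, levels in ask1 flower replicate 1 fell with exon length (rank correlation -0.467, against -0.0724 to 0.0753 in the other 11 libraries). The 33 tested members were mostly higher in ask1 flower replicate 1 than in ask1 flower replicate 2 (28 of 33, median log2 difference 0.385). Between the ask1 bud libraries, 8 of 33 were higher in replicate 1 than in replicate 2 (median log2 difference -0.213). The same shares over all tested genes were not counted. Exons totalled 759 bp in IAA33, the shortest member, and 2737 bp in GH3.17, the longest. Floral identity genes AP1, AP3, PI, AG and SEP3 were present in every group. Against ASK1 WT, 2 of these 5 fell in ask1 buds and 2 rose in ask1 open flowers. Of 5 carpel marker genes, 2 fell in buds and 1 fell in open flowers against ASK1 WT. Of 8 tapetum marker genes, 0 passed in ask1 buds against either control. Their summed levels were 415 and 441 CPM in ask1 buds against 418 to 482 CPM in control buds. All 16 pollen marker genes fell in ask1 in both tissues, from summed levels of 2990 to 3550 CPM to 102 and 298 CPM in buds and from 8091 to 10017 CPM to 987 and 1007 CPM in open flowers. The 4 stamen filament MYB genes also fell in ask1 buds (21.1 and 33.9 CPM against 64.8 to 123 CPM) whereas in open flowers the ask1 libraries lay on either side of the controls (188 and 295 CPM against 190.2 to 274 CPM), with MYB24 risen and MYB57 fallen against ASK1 WT, and the part of pollen and of filaments in the member results was not tested.

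Per kilobase of exon, the most abundant members were IAA8, IAA9, IAA7 and IAA16, broadly expressed canonical repressors, followed by GH3.6 (also known as DFL1). Their mean levels over the 12 libraries were 202 CPM per kb for IAA8, 197 for IAA9, 149.5 for IAA7, 77.9 for IAA16 and 37.9 for GH3.6. IAA7, IAA8, IAA9 and IAA16 together carried 74.7% to 78.5% of all Aux/IAA CPM in every library. At the other end, IAA15, IAA34 and IAA29 averaged 0.0531, 0.115 and 0.143 CPM per kb and were too low to test.

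IAA8 read 335 and 305 CPM in ask1 buds, 441 and 477 CPM for ASK1 WT and 423 and 411 CPM for Col-0. In open flowers IAA8 read 461 and 285 CPM in ask1, 487 and 464 CPM for ASK1 WT and 448 and 447 CPM for Col-0. IAA8 was lower in both ask1 bud libraries than in any control bud library, yet the difference of -0.52 ± 0.19 (edgeR adjusted p = 0.0736) did not pass. IAA9, whose counterpart in tomato acts in leaf form and fruit set, read 319.8 and 298 CPM in ask1 buds, 370.1 and 364 CPM for ASK1 WT and 358 and 346 CPM for Col-0. Open flowers gave 588 and 432 CPM in ask1, 509 and 496 CPM for ASK1 WT and 474 and 498 CPM for Col-0. IAA9 was lowest in the ask1 buds, while the ask1 flower libraries lay on either side of the controls. IAA7, the AXR2 repressor, read 93 and 109.7 CPM in ask1 buds, 143 and 132 CPM for ASK1 WT and 133 and 132 CPM for Col-0. The open-flower levels of IAA7 were 515 and 366 CPM in ask1, 431 and 453 CPM for ASK1 WT and 431 and 486 CPM for Col-0. The ask1 buds were again lowest and the ask1 flowers lay on either side of the controls, with no ask1 comparison passing for IAA7, IAA8 or IAA9.

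**Figure D1:**
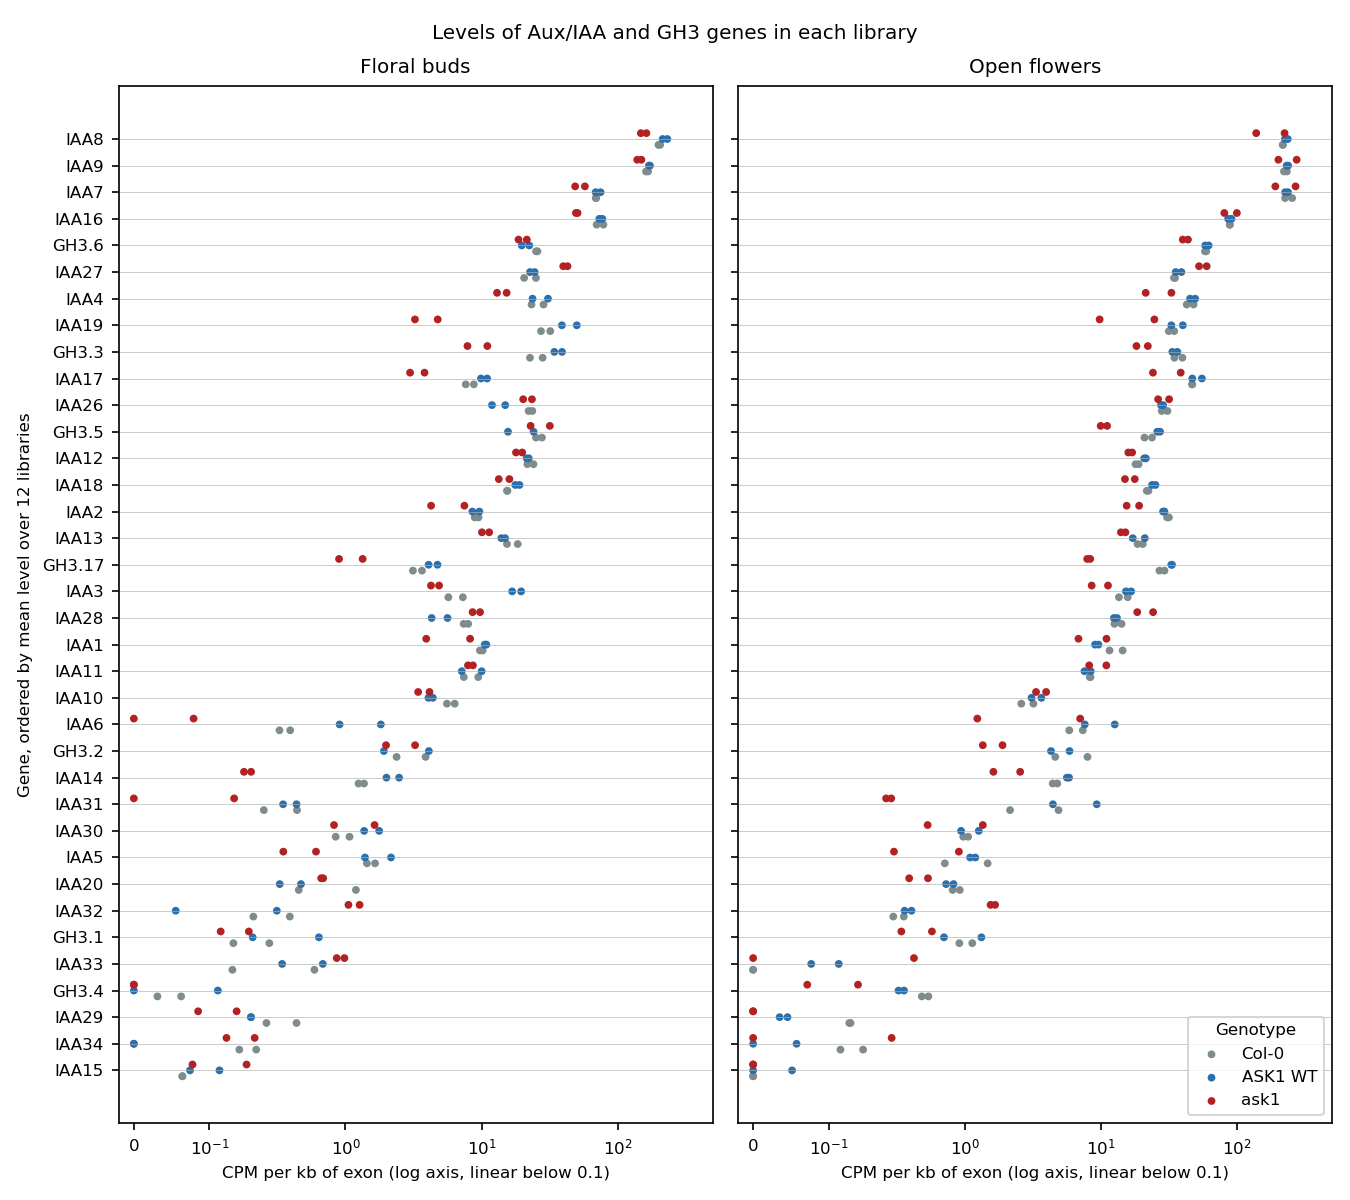
Level of each member in each library, in CPM per kb of exon on an axis that is logarithmic above 0.1 and linear below it, for floral buds (left) and open flowers (right). Each point is 1 library, coloured by genotype; genes are ordered by their mean level, from IAA8 at 202 to IAA15 at 0.0531 CPM per kb.

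The comparison of ask1 with its controls asked which auxin response genes differed when an SCF subunit was depleted. Most members that changed in ask1 were lower. In buds against ASK1 WT, 4 members rose and 11 fell, where 8.84% of all 21890 tested genes rose and 17% fell. Open flowers against ASK1 WT had 3 risen and 14 fallen members (background 14.1% and 15.9%). Against Col-0, buds had 2 risen and 9 fallen members (background 7.04% and 14.1%), and open flowers had 3 and 14 (background 12.9% and 14.3%). The 2 comparisons within a tissue share the ask1 libraries. Changes are given throughout as log2 fold changes ± SE (n = 2 libraries per group), and gene positions are those of TAIR10.1.

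By family, of 26 Aux/IAA genes tested against ASK1 WT, buds had 4 risen and 9 fallen and open flowers 3 risen and 9 fallen, with median log2 fold changes of -0.43 and -0.35 against -0.05 and 0.01 over all tested genes. Of 7 GH3 genes, 2 fell in buds and 5 in open flowers against ASK1 WT. The GH3 median was -1.33 in open flowers. In buds it was -1.33 as fitted, and -0.34 with GH3.4, which had 0 counts in ask1 buds, set at its bound. In total CPM, the Aux/IAA family read 1101 and 1092 in ask1 buds against 1339 to 1466 in the control buds, and 2250 and 1619 in ask1 open flowers against 2038 to 2156 in the controls. The 7 GH3 genes summed to 121 and 159 CPM in ask1 buds against 174 to 212 in control buds, and to 200.1 and 183 CPM in ask1 open flowers against 354 to 392 in control flowers. The GH3 sums of ask1 thus lay below every control library in both tissues, whereas the Aux/IAA sums did so in buds.

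Against both controls together, 6 Aux/IAA genes and 2 GH3 genes fell in buds and 2 Aux/IAA genes rose (12.6% of all tested genes fell and 5.62% rose by this rule). In open flowers 7 Aux/IAA and 5 GH3 genes fell and 3 Aux/IAA genes rose (12.8% and 10.5% of all tested genes). IAA4, IAA14, IAA17, GH3.3 and GH3.17 fell against both controls in both tissues, and IAA27 and IAA32 rose against both in both. With the trend of level with exon length removed, open flowers had 3 risen and 15 fallen members against ASK1 WT. Against Col-0 the counts were also 3 and 15. With each group fitted only with the libraries it was compared with, the open-flower counts dropped to 1 risen and 5 fallen against ASK1 WT and 1 and 4 against Col-0. The members still called were IAA14, IAA31, IAA32, GH3.2, GH3.5 and GH3.17 against ASK1 WT, and the same list without IAA14 against Col-0. Every other open-flower call of ask1 was lost in this fit. That includes the calls of IAA2, IAA3, IAA4, IAA17, IAA18, IAA27 and IAA28 against both controls. The gene paragraphs below do not all repeat this loss. Leaving out 1 library gave 10 to 21 calls in either tissue against ASK1 WT (10 in open flowers without ASK1 WT flower replicate 1). Against Col-0 in buds it gave 6 without Col-0 bud replicate 1, 7 without ask1 bud replicate 1, and 17 and 20 without ask1 flower replicates 1 and 2. Against Col-0 in open flowers it gave 9 and 10 without Col-0 flower replicates 1 and 2.

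**Figure D2:**
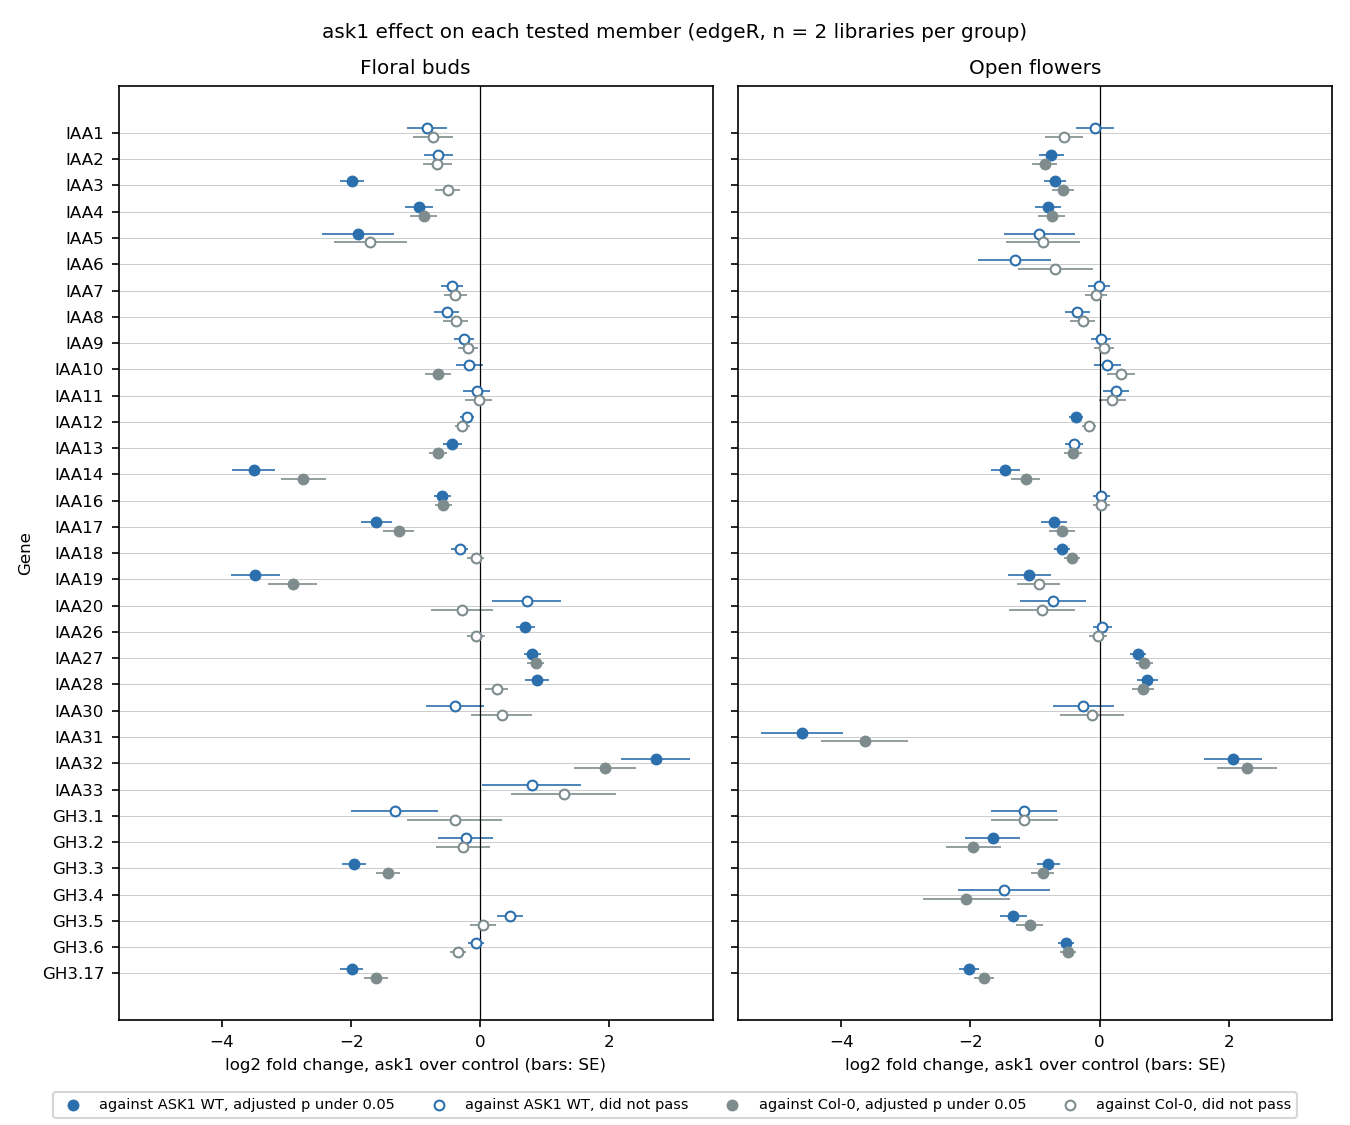
Log2 fold change of ask1 over ASK1 WT (blue) and over Col-0 (grey) for each tested member in floral buds (left) and open flowers (right), with bars of 1 SE and n = 2 libraries per group. Filled points passed at an adjusted p under 0.05; members with 3 or fewer counts in a group of a comparison are left out of it. Of the members drawn, IAA14 and IAA19 lie farthest to the left in buds, and IAA32 farthest to the right.

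Of the Aux/IAA genes that fell against both controls in buds, IAA14 and IAA19 fell furthest. IAA14 (AT4G14550, chr4:8347822-8350263) encodes SLR, a repressor of ARF7 and ARF19 in lateral root initiation. It read 0.382 and 0.339 CPM in ask1 buds, 4.67 and 3.77 CPM for ASK1 WT and 2.58 and 2.35 CPM for Col-0. These ask1 bud levels stood little above the floors of 0.164 and 0.203 CPM, so the bud fold changes rest on few counts. For open flowers the values were 4.82 and 3.06 CPM in ask1, 11 and 10.6 CPM for ASK1 WT and 8.36 and 9.04 CPM for Col-0. Both ask1 libraries lay below all 4 control libraries in each tissue. IAA14 fell 11.4-fold in buds against ASK1 WT, a log2 change of -3.51 ± 0.33 (edgeR adjusted p = 2.69e-05), and of -2.74 ± 0.35 against Col-0. In open flowers the log2 change was -1.46 ± 0.22 (edgeR adjusted p = 0.000792) against ASK1 WT and -1.15 ± 0.23 against Col-0. The bud calls and the open-flower call against ASK1 WT held under every alternative tried, and the open-flower call against Col-0 was lost when only the libraries compared were fitted (-1.16).

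IAA19 (AT3G15540, chr3:5264001-5265695) encodes MSG2, a repressor with roles in tropic growth of the hypocotyl and in stamen filament elongation. It read 3.27 and 4.81 CPM in ask1 buds, 50.6 and 39.4 CPM for ASK1 WT and 27.6 and 32.3 CPM for Col-0. In open flowers IAA19 read 25 and 9.89 CPM in ask1, 40.4 and 33.3 CPM for ASK1 WT and 31.9 and 35 CPM for Col-0. Both ask1 libraries lay below all control libraries in each tissue, but the ask1 flower libraries were far apart. IAA19 fell 11.2-fold in buds against ASK1 WT, or -3.49 ± 0.38 (edgeR adjusted p = 6.88e-05) on the log2 scale, and of -2.90 ± 0.38 against Col-0. In open flowers it fell with a log2 change of -1.09 ± 0.33 (edgeR adjusted p = 0.0301) against ASK1 WT, while the value against Col-0 was -0.94 ± 0.33 (edgeR adjusted p = 0.0568) and did not pass. Without ask1 flower replicate 1 the open-flower value against ASK1 WT was -1.95, without ask1 flower replicate 2 it was -0.57, and the call was lost without ASK1 WT flower replicate 1 (-1.03). In buds, where IAA19 fell, the 4 stamen filament MYB genes fell with it (summed levels above), and their part in the IAA19 result was not tested.

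IAA17 (AT1G04250, chr1:1136078-1138663), the AXR3 repressor, is known for its part in root growth and root hairs. It read 5.02 and 3.93 CPM in ask1 buds, 14.5 and 13 CPM for ASK1 WT and 11.6 and 10.1 CPM for Col-0. Open flowers gave 50.9 and 31.8 CPM in ask1, 61.9 and 72.8 CPM for ASK1 WT and 61.9 and 61.6 CPM for Col-0. All ask1 libraries lay below all control libraries of the same tissue. IAA17 fell with a log2 change of -1.61 ± 0.23 (edgeR adjusted p = 0.000492) in buds against ASK1 WT and of -1.26 ± 0.24 against Col-0, and both bud calls held under every alternative. In open flowers it fell with a log2 change of -0.70 ± 0.20 against ASK1 WT and -0.58 ± 0.20 against Col-0. These open-flower values rested on the choice of ask1 library, at -1.13 and -1.02 without ask1 flower replicate 1 and at -0.41 and -0.28 without replicate 2. The call against ASK1 WT was lost without ASK1 WT flower replicate 2 (-0.67), and that against Col-0 was lost without any 1 of 9 of the 12 libraries.

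IAA4 (AT5G43700, chr5:17550179-17551715), an early auxin-induced gene, read 17.6 and 20.7 CPM in ask1 buds, 32.1 and 41.7 CPM for ASK1 WT and 38.7 and 31.6 CPM for Col-0. The open-flower levels of IAA4 were 44.8 and 29 CPM in ask1, 66.9 and 61.4 CPM for ASK1 WT and 65.1 and 58 CPM for Col-0. Again the ask1 libraries lay below every control library of the tissue. IAA4 fell with a log2 change of -0.95 ± 0.21 and -0.88 ± 0.21 in buds and of -0.80 ± 0.21 and -0.74 ± 0.21 in open flowers, against ASK1 WT and Col-0 in turn. The bud call against ASK1 WT was lost without any 1 of ask1 bud replicate 1 (-0.83) and ASK1 WT bud replicate 2 (-0.75), and the bud call against Col-0 without any 1 of ask1 bud replicate 1 (-0.76) and Col-0 bud replicate 1 (-0.72). In open flowers the calls were lost without ASK1 WT flower replicate 1 (-0.82) and without Col-0 flower replicate 1 (-0.75), and the values were -1.20 and -1.15 without ask1 flower replicate 1 and -0.52 and -0.46 without replicate 2.

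IAA3 (AT1G04240, chr1:1128149-1129689), the SHY2 repressor, acts in root meristem size control. It read 6.6 and 5.76 CPM in ask1 buds, 26.5 and 22.8 CPM for ASK1 WT and 9.87 and 7.73 CPM for Col-0. For open flowers the values were 15.3 and 11.6 CPM in ask1, 22.6 and 20.7 CPM for ASK1 WT and 18.4 and 21.4 CPM for Col-0. In buds ASK1 WT stood well above Col-0, and ask1 was below both. IAA3 fell with a log2 change of -1.99 ± 0.19 (edgeR adjusted p = 2.68e-05) in buds against ASK1 WT, whereas the value against Col-0 was -0.51 ± 0.19 (edgeR adjusted p = 0.0921) and did not pass. In open flowers it fell with a log2 change of -0.69 ± 0.17 against ASK1 WT and -0.57 ± 0.18 against Col-0. The open-flower calls were lost without ASK1 WT flower replicate 1 (-0.70) and without any 1 of ask1 flower replicate 2 (-0.38), ASK1 WT bud replicate 1 (-0.57), ASK1 WT bud replicate 2 (-0.57) and Col-0 flower replicate 2 (-0.55). IAA3 overlaps AT1G04230 on the opposite strand over 536 bp, and its level is uncertain because the strand setting of the counting was not given; AT1G04230 itself differed by -0.09 ± 0.15 in ask1 buds against ASK1 WT.

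**Figure D3:**
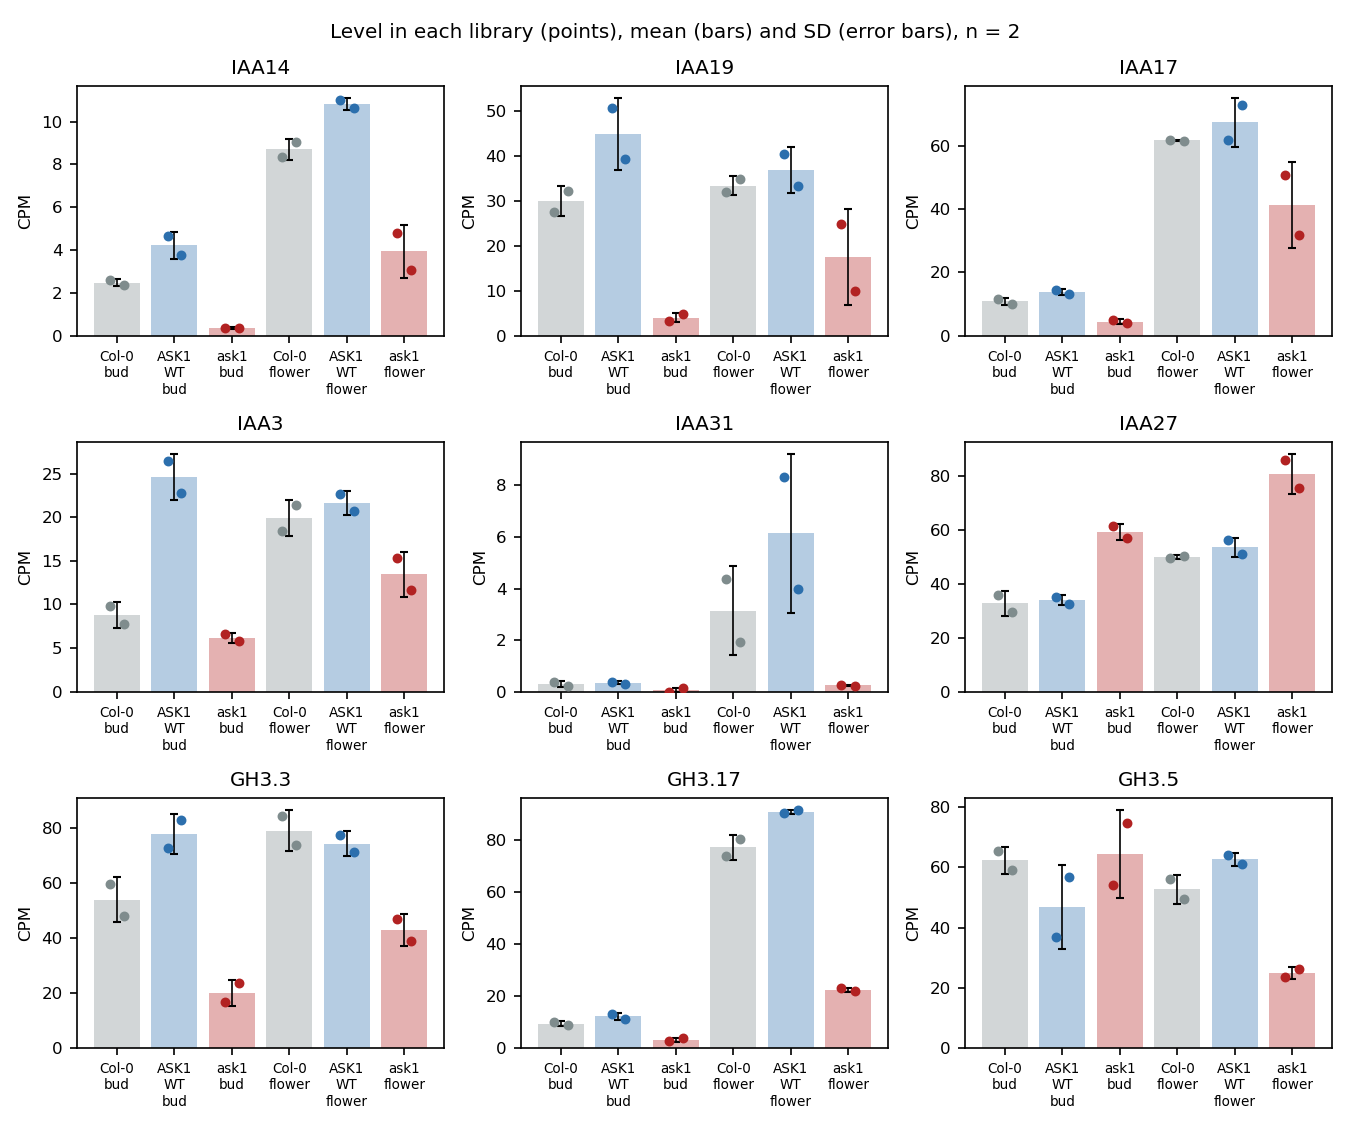
Levels of 9 members in every library, in CPM on linear axes from 0. Points are single libraries, bars are group means and error bars are SD (n = 2). The ask1 points of IAA14, IAA19, IAA17, GH3.3 and GH3.17 lie below the control points in both tissues, those of IAA27 lie above them, and those of GH3.5 lie below them in open flowers only.

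IAA16 and IAA13 fell against both controls in buds but not against both in open flowers. IAA16 (AT3G04730, chr3:1288155-1290891), among the most abundant members, read 99.99 and 103 CPM in ask1 buds, 149 and 156 CPM for ASK1 WT and 159 and 142 CPM for Col-0. In open flowers IAA16 read 202 and 164 CPM in ask1, 185 and 175 CPM for ASK1 WT and 179 and 179.7 CPM for Col-0. The ask1 buds lay below all control buds, and the ask1 flowers lay on either side of the control flowers. IAA16 fell with a log2 change of -0.59 ± 0.14 (edgeR adjusted p = 0.00863) and -0.57 ± 0.14 in buds, against open-flower values of 0.03 ± 0.13 and 0.03 ± 0.13. The bud calls were lost without any 1 of ask1 bud replicate 1 (-0.57) and ASK1 WT bud replicate 2 (-0.55), and without any 1 of ask1 bud replicate 1 (-0.55), ask1 bud replicate 2 (-0.59) and Col-0 bud replicate 1 (-0.48).

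IAA13 (AT2G33310, chr2:14113025-14116089), a close relative of the embryo patterning repressor IAA12, read 22.4 and 25.3 CPM in ask1 buds, 31 and 33.1 CPM for ASK1 WT and 41 and 34.2 CPM for Col-0. Open flowers gave 33.7 and 31.2 CPM in ask1, 46.8 and 38.1 CPM for ASK1 WT and 45.2 and 41.4 CPM for Col-0. The ask1 libraries were below the controls in both tissues, but by little. IAA13 fell with a log2 change of -0.43 ± 0.14 and -0.66 ± 0.14 in buds, and of -0.42 ± 0.14 in open flowers against Col-0. These calls were fragile: that against ASK1 WT in buds was lost without any 1 of 10 libraries (-0.52 to -0.34), that against Col-0 in buds without any 1 of ask1 bud replicate 1 (-0.57) and Col-0 bud replicate 1 (-0.52), and that against Col-0 in open flowers without any 1 of 9 (-0.57 to -0.36). IAA13 also overlaps AT2G33300 on the opposite strand over 784 bp, so its level is uncertain. AT2G33300 itself read 0.0677 CPM or less in every library.

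IAA2, IAA18 and IAA31 fell against both controls in open flowers but not in buds. IAA31 (AT3G17600, chr3:6019973-6021147), which lacks the degron core, read in open flowers 0.257 and 0.236 CPM in ask1, 8.32 and 3.97 CPM for ASK1 WT and 4.36 and 1.92 CPM for Col-0. Both ask1 flower libraries lay far below the 4 control flower libraries, which themselves spread widely. The ask1 flower levels held 8 counts in all and were close to the floors of 0.193 and 0.177 CPM. The size of the fall is therefore uncertain. IAA31 fell 24.5-fold against ASK1 WT, or -4.61 ± 0.64 (edgeR adjusted p = 0.000412) on the log2 scale, and of -3.64 ± 0.67 against Col-0, and both calls held under every alternative. In buds IAA31 was near the floor everywhere, with 0 and 2 counts in ask1, 6 and 6 in ASK1 WT and 7 and 4 in Col-0. The bud counts of ASK1 WT were 5.72-fold those of ask1, with a 95% interval of 1.27 to 52.6 that covers counting error only.

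IAA2 (AT3G23030, chr3:8180646-8182095) is an early auxin-induced gene whose promoter is widely used as an auxin reporter. It read 5.78 and 10.2 CPM in ask1 buds, 11.6 and 13.1 CPM for ASK1 WT and 12.9 and 12.1 CPM for Col-0. The open-flower levels of IAA2 were 26 and 21 CPM in ask1, 38.9 and 39.8 CPM for ASK1 WT and 43 and 41.7 CPM for Col-0. The ask1 libraries lay below all controls in each tissue. IAA2 fell with a log2 change of -0.75 ± 0.20 (edgeR adjusted p = 0.0163) and -0.85 ± 0.20 in open flowers, while the bud values of -0.65 ± 0.22 and -0.66 ± 0.22 did not pass. The open-flower call against ASK1 WT was lost without ASK1 WT flower replicate 2 (-0.82). IAA18 (AT1G51950, chr1:19305081-19307518), which acts in embryo apical patterning, read 23.8 and 28.5 CPM in ask1 buds, 33.8 and 31.5 CPM for ASK1 WT and 27.4 and 27.6 CPM for Col-0. For open flowers the values were 31.6 and 26.8 CPM in ask1, 44.9 and 42.4 CPM for ASK1 WT and 38.7 and 39.9 CPM for Col-0. The ask1 flowers were below all control flowers, and the ask1 buds overlapped the Col-0 buds. IAA18 fell with a log2 change of -0.58 ± 0.12 and -0.43 ± 0.13 in open flowers, and the call against Col-0 was lost without any 1 of Col-0 flower replicate 1 (-0.54) and Col-0 flower replicate 2 (-0.50).

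Against this trend, IAA27, IAA28 and IAA32 were higher in ask1. IAA27 (AT4G29080, chr4:14323296-14325361), also named PAP2 for its association with phytochrome A, read 61.4 and 57.2 CPM in ask1 buds, 35.2 and 32.6 CPM for ASK1 WT and 36 and 29.5 CPM for Col-0. In open flowers IAA27 read 86 and 75.6 CPM in ask1, 56.1 and 50.9 CPM for ASK1 WT and 49.5 and 50.4 CPM for Col-0. Every ask1 library lay above every control library of its tissue. IAA27 rose by 0.81 ± 0.13 (edgeR adjusted p = 0.00102) and 0.86 ± 0.13 in buds, which held under every alternative, and by 0.59 ± 0.13 and 0.69 ± 0.13 in open flowers. The open-flower calls were lost without ASK1 WT flower replicate 2 (0.44) and without Col-0 flower replicate 1 (0.59).

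IAA32 (AT2G01200, chr2:117969-120095), which lacks the degron core, is known from the apical hook, where it is stabilised and not degraded in response to auxin. It read 1.96 and 2.37 CPM in ask1 buds, 0.584 and 0.103 CPM for ASK1 WT and 0.393 and 0.728 CPM for Col-0. Open flowers gave 2.89 and 3.12 CPM in ask1, 0.675 and 0.758 CPM for ASK1 WT and 0.666 and 0.557 CPM for Col-0. All ask1 libraries stood above all controls, at low levels. IAA32 rose by 2.72 ± 0.53 (edgeR adjusted p = 0.00331) and 1.93 ± 0.48 in buds and by 2.06 ± 0.44 and 2.28 ± 0.47 in open flowers. The bud value against ASK1 WT was 4.29 without ASK1 WT bud replicate 1, and calls were lost without ASK1 WT flower replicate 1 (1.90) in open flowers against ASK1 WT, without any 1 of ask1 bud replicate 2 (1.80) and Col-0 bud replicate 1 (1.56) in buds against Col-0 and without Col-0 flower replicate 2 (2.08) in open flowers against Col-0. IAA32 overlaps AT2G01210 on the opposite strand over 826 bp, so its level is uncertain. AT2G01210 read 6.62 to 15.1 CPM over all libraries, above IAA32 in each. In ask1 against ASK1 WT, AT2G01210 differed by 0.12 ± 0.14 in buds and -0.44 ± 0.15 in open flowers, neither of which passed.

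IAA28 (AT5G25890, chr5:9033204-9035140), a repressor of lateral root formation, read 11.9 and 13.5 CPM in ask1 buds, 5.97 and 7.81 CPM for ASK1 WT and 10.3 and 11.1 CPM for Col-0. The open-flower levels of IAA28 were 33.7 and 25.7 CPM in ask1, 18.3 and 17.3 CPM for ASK1 WT and 17.5 and 19.7 CPM for Col-0. The ask1 libraries were the highest of each tissue, and in buds ASK1 WT was the lowest. IAA28 rose by 0.74 ± 0.16 and 0.67 ± 0.17 in open flowers and by 0.88 ± 0.18 (edgeR adjusted p = 0.00455) in buds against ASK1 WT, while its bud value against Col-0 was 0.25 ± 0.17 and did not pass. The calls were lost without ASK1 WT bud replicate 1 (0.71) in buds against ASK1 WT, without any 1 of ASK1 WT flower replicate 1 (0.70) and ASK1 WT flower replicate 2 (0.61) in open flowers against ASK1 WT, and without any 1 of ask1 flower replicate 1 (0.41), Col-0 flower replicate 1 (0.50) and Col-0 flower replicate 2 (0.67) in open flowers against Col-0. The open-flower value against ASK1 WT was 0.48 without ask1 flower replicate 1.

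A further 5 Aux/IAA genes passed against 1 control only, besides IAA3 and IAA28 in buds and IAA13 and IAA19 in open flowers. IAA26, the phytochrome-associated PAP1, rose by 0.70 ± 0.15 in buds against ASK1 WT, with 42.1 to 48.8 CPM in ask1, 24.8 to 31.0 in ASK1 WT and 46.1 to 49.1 in Col-0. The ask1 buds thus overlapped Col-0 and exceeded ASK1 WT, and the call was lost without ASK1 WT bud replicate 1 (0.55). IAA5 fell with a log2 change of -1.89 ± 0.56 in buds against ASK1 WT at bud levels of 0.273 to 1.69 CPM, and the call was lost without any 1 of ask1 bud replicate 1 (-1.52), ask1 bud replicate 2 (-2.30), ASK1 WT bud replicate 1 (-1.55) and ASK1 WT flower replicate 2 (-1.83). IAA6, the SHY1 repressor of hypocotyl growth, had bud counts of 0 and 1 in ask1, 24 and 15 for ASK1 WT and 5 and 6 for Col-0. Its ASK1 WT counts were 37.1-fold those of ask1, with a 95% interval of 6.29 to 1500 that covers counting error only, and the call was lost without any 1 of 6 libraries. IAA10 fell in buds against Col-0 (-0.66 ± 0.20, lost without any 1 of 10 libraries, -0.80 to -0.52), and IAA12, the BDL partner of ARF5 in the embryo, fell in open flowers against ASK1 WT at -0.36 ± 0.11, a call lost without any 1 of ASK1 WT bud replicate 1 (-0.36), ASK1 WT bud replicate 2 (-0.36), ASK1 WT flower replicate 1 (-0.42) and ASK1 WT flower replicate 2 (-0.47).

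The remaining Aux/IAA genes passed in no ask1 comparison. These were IAA1, IAA7, IAA8, IAA9, IAA11, IAA20, IAA30 and IAA33. IAA1, an early auxin-induced gene, had the smallest adjusted p of them, in buds against ASK1 WT, at -0.83 ± 0.31 (edgeR adjusted p = 0.0731). IAA11 stood at -0.06 ± 0.21 in buds and 0.26 ± 0.20 in open flowers against ASK1 WT. The degron-lacking IAA20 and IAA30 stood at 0.325 to 1.76 CPM, and IAA33 at 0.745 CPM or less in every library.

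Among GH3 enzymes, GH3.17 and GH3.3 fell in ask1 in both tissues. GH3.17 (AT1G28130, chr1:9825169-9828118) conjugates auxin to glutamate. It read 2.45 and 3.66 CPM in ask1 buds, 13 and 11.2 CPM for ASK1 WT and 9.99 and 8.57 CPM for Col-0. For open flowers the values were 22.9 and 21.7 CPM in ask1, 90.2 and 91.3 CPM for ASK1 WT and 73.7 and 80.4 CPM for Col-0. Both ask1 libraries lay well below all controls in each tissue. GH3.17 fell with a log2 change of -1.99 ± 0.18 (edgeR adjusted p = 2.27e-05) in buds and -2.02 ± 0.15 (edgeR adjusted p = 7.79e-06) in open flowers against ASK1 WT, close to 3.98-fold and 4.07-fold. Against Col-0 it fell with a log2 change of -1.62 ± 0.19 and -1.79 ± 0.15, and all 4 calls held under every alternative.

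GH3.3 (AT2G23170, chr2:9863855-9866562), an auxin-induced enzyme that acts in adventitious rooting with GH3.5 and GH3.6, read 16.7 and 23.4 CPM in ask1 buds, 72.6 and 82.7 CPM for ASK1 WT and 59.5 and 48 CPM for Col-0. In open flowers GH3.3 read 46.9 and 38.7 CPM in ask1, 77.3 and 71 CPM for ASK1 WT and 84.2 and 73.6 CPM for Col-0. The ask1 libraries lay below all controls in both tissues. GH3.3 fell with a log2 change of -1.96 ± 0.19 (edgeR adjusted p = 2.9e-05) in buds and -0.79 ± 0.18 in open flowers against ASK1 WT, and of -1.43 ± 0.19 and -0.88 ± 0.18 against Col-0. The bud calls held under every alternative, and the open-flower calls were lost when only the libraries compared were fitted (-0.81 and -0.90).

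GH3.5, GH3.6 and GH3.2 fell in open flowers but not in buds. GH3.5 (AT4G27260, chr4:13653579-13656285), also named WES1, conjugates auxin and salicylic acid. It read 54.1 and 74.8 CPM in ask1 buds, 36.9 and 56.8 CPM for ASK1 WT and 65.5 and 59.2 CPM for Col-0. Open flowers gave 23.5 and 26.2 CPM in ask1, 64.2 and 61.2 CPM for ASK1 WT and 56.1 and 49.3 CPM for Col-0. The bud libraries overlapped between genotypes, whereas the ask1 flowers lay below all control flowers. GH3.5 fell with a log2 change of -1.33 ± 0.21 (edgeR adjusted p = 0.000931) and -1.08 ± 0.21 in open flowers under every alternative, against bud values of 0.46 ± 0.20 and 0.05 ± 0.20.

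GH3.6 (AT5G54510, chr5:22130964-22133688) read 43.4 and 49.9 CPM in ask1 buds, 45.8 and 52 CPM for ASK1 WT and 59.7 and 58.3 CPM for Col-0. The open-flower levels of GH3.6 were 101 and 92.8 CPM in ask1, 144 and 136 CPM for ASK1 WT and 135 and 138 CPM for Col-0. Only the ask1 flowers stood apart. GH3.6 fell with a log2 change of -0.53 ± 0.12 (edgeR adjusted p = 0.00922) and -0.49 ± 0.12 in open flowers, calls that were lost when only the libraries compared were fitted (-0.54 and -0.51). GH3.2 (AT4G37390, chr4:17579618-17582022), also named YDK1, read 4.31 and 7.04 CPM in ask1 buds, 4.15 and 8.89 CPM for ASK1 WT and 8.42 and 5.15 CPM for Col-0. For open flowers the values were 4.11 and 2.94 CPM in ask1, 12.8 and 9.33 CPM for ASK1 WT and 17.3 and 10.0 CPM for Col-0. Its bud libraries overlapped, and its ask1 flowers were below all control flowers. GH3.2 fell with a log2 change of -1.65 ± 0.43 and -1.96 ± 0.43 in open flowers; the calls were lost without any 1 of ask1 flower replicate 1 (-1.97), ask1 flower replicate 2 (-1.44) and ASK1 WT flower replicate 1 (-1.49), and without any 1 of ask1 flower replicate 1 (-2.27), ask1 flower replicate 2 (-1.73) and Col-0 flower replicate 1 (-1.60).

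GH3.1 and GH3.4 were the least abundant GH3 genes. GH3.4 fell in open flowers against Col-0 (-2.06 ± 0.68), from 16 and 14 counts to 2 and 5, and the call was lost without any 1 of 9 libraries (-2.22 to -1.67). In buds GH3.4 had no count in either ask1 library, against 0 and 4 in ASK1 WT. GH3.1 stood at 0.271 to 2.97 CPM and passed in no ask1 comparison. GH3.2 and GH3.4 share 1.14% and 1.4% of their 50-base words with sequences elsewhere in the genome, so a small part of their reads could have been split.

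The comparison of ASK1 WT with Col-0 measured how far the controls differed from each other. IAA3 was the only member to pass, in buds, where it rose by 1.48 ± 0.18 (edgeR adjusted p = 0.00893) in ASK1 WT; 0.174% of all tested genes rose and 0.146% fell in that comparison. The IAA3 call was lost without any 1 of ASK1 WT bud replicate 1 (1.37), Col-0 bud replicate 1 (1.67) and Col-0 bud replicate 2 (1.32). In buds 7 members had an unadjusted edgeR p under 0.05. IAA26 and IAA28 were lower in ASK1 WT than in Col-0 buds by values that did not pass (-0.77 ± 0.15 and -0.62 ± 0.18). All 16 pollen marker genes and all 4 stamen filament MYB genes were higher in ASK1 WT than in Col-0 buds. Their median log2 differences were 0.29 and 0.96, and 0 of them passed. The pollen marker genes were all lower in ASK1 WT open flowers (median -0.19), where 0 passed. In open flowers no member passed by edgeR, none had an unadjusted p under 0.05 and DESeq2 called 0, with 0.032% of all genes risen and 0.00914% fallen.

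The tissue comparison asked which members differ between floral buds and open flowers. Most members that differed were higher in open flowers. In Col-0, 17 rose and 2 fell from buds to open flowers (background 18.8% and 17.1%), of which 12 and 2 were Aux/IAA genes and 5 were GH3 genes. In ASK1 WT all 16 called members rose (background 18.4% risen and 16.9% fallen). In ask1, 18 rose and 1 fell (background 22.2% and 15.5%). Without Col-0 bud replicate 2 the Col-0 count was 12, and with only the libraries compared the ask1 count was 12.

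GH3.17 and IAA17 showed the steepest rises among well-expressed members. In Col-0, GH3.17 rose by 3.05 ± 0.16 (edgeR adjusted p = 2.2e-07) and IAA17 by 2.51 ± 0.21. The rises of GH3.17 were 2.91 ± 0.16 in ASK1 WT and 2.88 ± 0.18 in ask1, where the ask1 level stayed lower in both tissues. IAA7 rose by 1.79 ± 0.18 in Col-0, IAA2 by 1.76 ± 0.20, IAA14 by 1.82 ± 0.24, GH3.6 by 1.21 ± 0.13 and IAA3 by 1.18 ± 0.18. Smaller rises in Col-0 were those of IAA4 (0.81 ± 0.21), IAA28 (0.80 ± 0.17), IAA27 (0.61 ± 0.13), GH3.3 (0.55 ± 0.18), IAA18 (0.52 ± 0.13) and IAA9 (0.47 ± 0.15). The Col-0 calls of IAA4, IAA27, GH3.1 and GH3.4 were lost without Col-0 bud replicate 2 (0.67, 0.47, 1.88 and 2.95), those of GH3.3 without any 1 of Col-0 bud replicate 2 (0.41) and Col-0 flower replicate 1 (0.52), and that of IAA9 without any 1 of 5 libraries.

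IAA6 was close to absent from buds and present in open flowers. It read 0.281 and 0.336 CPM in Col-0 buds and 5.03 and 6.31 in Col-0 open flowers. In ASK1 WT it read 1.56 and 0.776 CPM in buds and 10.8 and 6.53 in open flowers. In ask1 it went from 0 and 1 counts in buds to 6.04 and 1.06 CPM in open flowers, the ask1 flower libraries being far apart. IAA6 rose by 4.17 ± 0.80 (edgeR adjusted p = 0.00188) in Col-0 and 2.93 ± 0.64 in ASK1 WT, the latter lost without ASK1 WT bud replicate 2 (2.48). The ask1 flower counts were 114-fold those of ask1 buds, with a 95% interval of 20 to 4540 for counting error only.

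IAA31 rose by 3.32 ± 0.63 in Col-0 and 4.13 ± 0.60 in ASK1 WT, but its ask1 value of 1.90 ± 1.32 did not pass. GH3.4 counts were 10.9-fold higher in Col-0 open flowers than in buds, with a 95% counting interval of 3.4 to 55.9. GH3.1, at 0.617 and 0.336 CPM in Col-0 buds and 2.54 and 2.04 in Col-0 open flowers, rose by 2.25 ± 0.57. IAA10 and IAA12 were the members that fell in Col-0. IAA10 read 8.3 and 7.28 CPM in Col-0 buds and 4.18 and 3.41 in Col-0 open flowers, a change of -1.04 ± 0.21 (edgeR adjusted p = 0.00228), with values of -0.33 ± 0.20 in ASK1 WT and -0.04 ± 0.21 in ask1 that did not pass. IAA10 overlaps AT1G04105 on the opposite strand over 361 bp and is uncertain. IAA12 read 36.4 and 32.8 CPM in Col-0 buds and 27.1 and 28.6 in Col-0 open flowers (-0.31 ± 0.11), a call lost without any 1 of 10 libraries (-0.38 to -0.20).

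Whether ask1 acted differently in buds and open flowers was tested as the difference of the ask1 effects against ASK1 WT. Against ASK1 WT, IAA3, IAA14, IAA19 and GH3.3 fell further in buds than in open flowers, while GH3.5 fell in open flowers and did not pass in buds. The difference, as the open-flower effect minus the bud effect, was 1.30 ± 0.25 (edgeR adjusted p = 0.0153) for IAA3, 2.05 ± 0.42 (edgeR adjusted p = 0.0182) for IAA14 and 2.40 ± 0.50 (edgeR adjusted p = 0.0194) for IAA19. It was 1.16 ± 0.26 (edgeR adjusted p = 0.0242) for GH3.3 and -1.79 ± 0.29 (edgeR adjusted p = 0.00725) for GH3.5. For IAA3 the ASK1 WT buds stood above the Col-0 buds by 1.48, and against Col-0 its values were -0.51 in buds, which did not pass, and -0.57 in open flowers. IAA14, IAA19 and GH3.3 also read higher in both ASK1 WT bud libraries than in either Col-0 bud library, and GH3.5 read lower. These control differences did not pass. The same difference against Col-0 was not tested. Of all tested genes, 4.45% differed upward and 2.36% downward. For GH3.17, which fell in both tissues, the difference was -0.03 ± 0.26. Only the GH3.5 call held under every alternative: with only the libraries compared, 1 of the 5 calls was left. Leaving out 1 library gave 1 call without ASK1 WT bud replicate 1 or either ASK1 WT flower replicate, 2 without ask1 bud replicate 1, and 8 and 13 without ask1 flower replicates 1 and 2; the IAA19 difference was 1.49 without ask1 flower replicate 1.

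**Figure D4:**
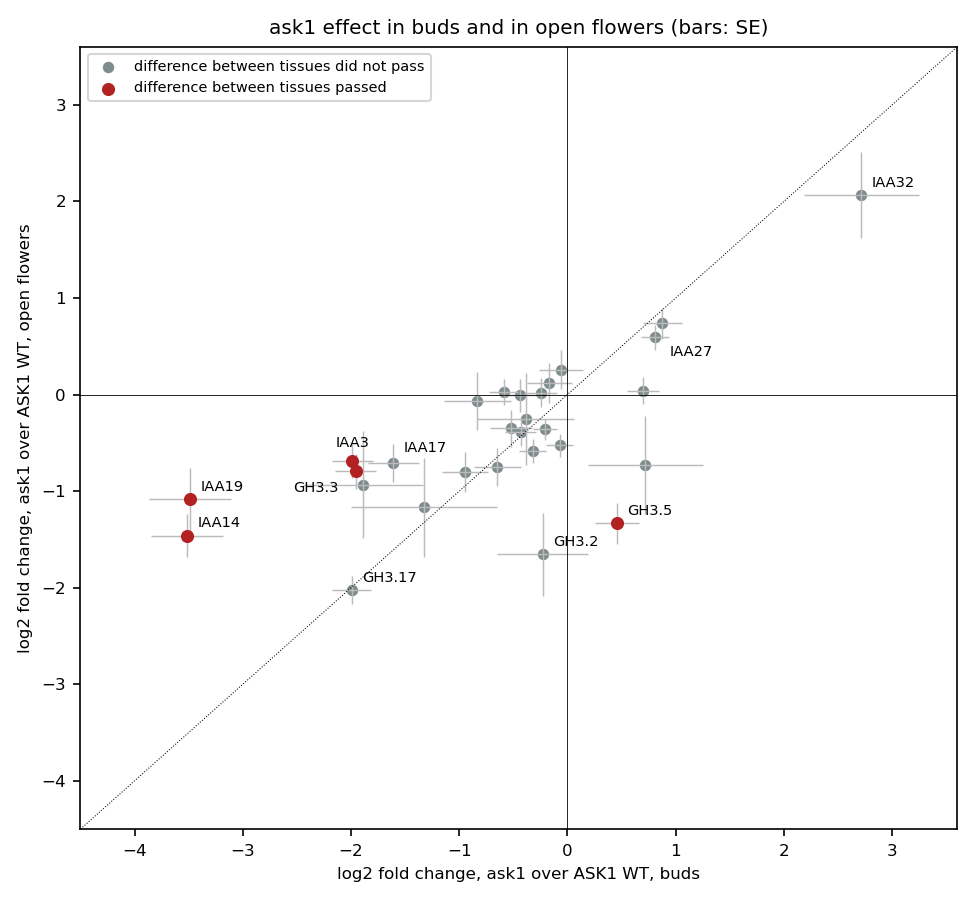
Effect of ask1 over ASK1 WT in open flowers against that in buds, as log2 fold changes with bars of 1 SE, for members with more than 3 counts in each group compared. Red points are the 5 members whose effect differed between the tissues; IAA3, IAA14, IAA19 and GH3.3 lie above the dotted line of equal effect and GH3.5 lies below it. GH3.17 lies on the line.

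The rest of the auxin pathway was read from lists of textbook membership, in ask1 against ASK1 WT. Of all tested genes, 8.84% rose and 17% fell in that comparison for buds, and for open flowers 14.1% and 15.9% did. The counts below stand beside these shares, and no list was tested as a set. After the data were seen, each list was also counted without either ask1 flower library, with the length trend removed and with only the libraries compared. With only the libraries compared, no gene of the receptor, ARF, corepressor, turnover or other response lists passed in open flowers. Of the 6 TIR1/AFB receptor genes, 1 rose and 1 fell in ask1 buds and 1 rose in open flowers; the open-flower count was 1 risen and 2 fallen when ask1 flower replicate 2 was left out. TIR1 read 113 and 129 CPM in ask1 buds and 88.9 and 100.01 in ASK1 WT buds, and its values of 0.36 ± 0.20 in buds and -0.06 ± 0.20 in open flowers did not pass. AFB1, a receptor of rapid auxin responses, fell with a log2 change of -1.24 ± 0.13 (edgeR adjusted p = 6.26e-05) in buds, AFB4 rose by 0.50 ± 0.14 in buds and AFB3 rose by 0.42 ± 0.12 in open flowers. Of 23 ARF genes, 16 were tested: buds had 1 risen and 4 fallen and open flowers 4 fallen, with list medians of -0.18 and -0.32. ARF6, an activator of flower maturation, rose by 0.74 ± 0.24 (edgeR adjusted p = 0.0454) in buds, and its partner ARF8 fell with a log2 change of -0.53 ± 0.17 (edgeR adjusted p = 0.0387) in open flowers. ARF10, a repressor-type ARF, fell with a log2 change of -1.10 ± 0.12 in buds and -0.43 ± 0.12 in open flowers, ARF11 fell with a log2 change of -1.13 ± 0.25 and -1.41 ± 0.28, and ARF17, which acts in pollen wall formation, fell with a log2 change of -0.53 ± 0.12 in buds. The summed ARF level was 806 and 1472 CPM in ask1 flower replicates 1 and 2, on either side of the 1340 to 1386 CPM of the control flowers. The open-flower ARF counts were 2 risen and 3 fallen without replicate 1 (median -0.04) and 12 fallen without replicate 2 (median -0.61). With the length trend removed they were 4 risen and 2 fallen (median -0.01), and the calls of ARF8 (-0.16) and ARF10 (-0.16) were lost. The ARF11 value was -2.05 without replicate 2 and -1.04 without replicate 1, and that of ARF8 was -0.82 and -0.34. In buds the length trend removed gave 1 risen and 7 fallen, and leaving out ask1 flower replicate 1 or 2 gave 2 risen with 6 or 8 fallen.

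Among the 5 TOPLESS-type corepressor genes, which Aux/IAA proteins recruit, 1 fell in buds and 4 fell in open flowers, with medians of -0.43 and -0.82. TPR3 fell with a log2 change of -0.59 ± 0.15 (edgeR adjusted p = 0.016) in buds and -0.82 ± 0.15 in open flowers, where TPL fell with a log2 change of -0.84 ± 0.22, TPR4 by -0.86 ± 0.23 and TPR1 by -0.63 ± 0.19. The exons of these genes total 3902 to 4489 bp each. The summed corepressor level was 386 CPM in ask1 flower replicate 1, the library with the length trend, and 697 CPM in replicate 2, against 857 to 903 CPM in control flowers. Without replicate 1 the open-flower count was 4 fallen with a median of -0.52, and without replicate 2 it was 5 with a median of -1.18. With the length trend removed it was 3 with a median of -0.38: TPL stood at -0.39, TPR3 at -0.38 and TPR4 at -0.40, and the call of TPR1 was lost (-0.21). In buds the summed level was 645 and 716 CPM in ask1 against 863 to 884 CPM in the controls. The bud count was 4 fallen with the length trend removed or without either ask1 flower library, and 3 with only the libraries compared.

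Of 14 auxin synthesis genes, 8 were tested, and 1 rose and 2 fell in each tissue (medians -0.12 and -0.63). YUC6, a flavin monooxygenase of the last step of auxin synthesis, fell with a log2 change of -0.90 ± 0.16 in buds and -1.86 ± 0.18 (edgeR adjusted p = 4.64e-05) in open flowers. YUC2 fell with a log2 change of -1.06 ± 0.30 in buds, TAR2 rose by 0.50 ± 0.15 in buds and TAA1 rose by 0.77 ± 0.20 in open flowers, a call lost without ask1 flower replicate 1 (0.36). The open-flower counts were 3 fallen without that library, 3 risen and 2 fallen without replicate 2, and 1 fallen, YUC6, with only the libraries compared. Of 15 auxin transport genes, buds had 1 risen and 4 fallen and open flowers 2 risen and 5 fallen (medians -0.28 and -0.22). With only the libraries compared, 3 fell in open flowers, and buds had 7 fallen without either ask1 flower library. The efflux carrier gene PIN3 fell with a log2 change of -1.92 ± 0.15 (edgeR adjusted p = 8.52e-06) and -0.97 ± 0.14, and the influx carrier gene LAX1 rose by 0.77 ± 0.11 and 0.51 ± 0.11. PIN8, a carrier gene of pollen, fell with a log2 change of -2.58 ± 0.34 and -1.95 ± 0.37.

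Of 11 auxin turnover genes, 8 were tested: buds had 1 risen gene, and open flowers 1 risen and 3 fallen (medians 0.03 and 0.12). IAR3, which releases auxin from amino acid conjugates, rose by 0.62 ± 0.12 in buds, and DAO1, an auxin oxidase, fell with a log2 change of -0.43 ± 0.14 in open flowers, a call lost without ask1 flower replicate 2 (-0.35). Of 12 other GH3 genes, 8 were tested, of which 5 fell in buds and 2 in open flowers (medians -0.64 and -0.01). PBS3, which acts in salicylic acid synthesis, fell with a log2 change of -1.45 ± 0.17 (edgeR adjusted p = 0.000106) and -1.20 ± 0.16, and JAR1, which conjugates jasmonate to isoleucine, fell with a log2 change of -0.51 ± 0.13 in buds. Of 23 other auxin response genes, mostly SAUR genes, 17 were tested, of which 8 fell in buds and 6 in open flowers (medians -1.25 and -0.71). In open flowers 12 fell without ask1 flower replicate 1 (19 tested, median -1.37), 4 without replicate 2 (19 tested, median 0.03) and 9 with the length trend removed. SAUR50 fell with a log2 change of -1.25 ± 0.18 (edgeR adjusted p = 0.000423) in buds, and SAUR63 by -2.31 ± 0.40 in buds.

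Members that shared a feature did not all move alike. Of 23 Aux/IAA genes with the degron core, 21 were tested; 6 fell and 1 rose against both controls in buds, and 6 fell and 2 rose in open flowers. Of 6 without it, 5 were tested. IAA32 rose in both tissues and IAA31 fell in open flowers. By the same rule, 12.6% of all tested genes fell and 5.62% rose in buds. In open flowers 12.8% fell and 10.5% rose. The genes with and without the core were not tested against each other. TGTCTC was in the promoters of 5 of the 15 members that fell against both controls in a tissue and of 11 of the 21 other members. Those others include the untested IAA15, IAA29 and IAA34, of which IAA15 and IAA34 held TGTCTC. Some members are close neighbours: IAA3 and IAA17 lie 6.4 kb apart on chromosome 1, IAA2 and IAA7 12.5 kb apart on chromosome 3, and IAA14 and IAA1 10.7 kb apart on chromosome 4. In ask1 buds against ASK1 WT, IAA14 and IAA1 differed by -3.51 ± 0.33 and -0.83 ± 0.31, IAA3 and IAA17 by -1.99 ± 0.19 and -1.61 ± 0.23, and IAA2 and IAA7 by -0.65 ± 0.22 and -0.44 ± 0.17.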

How the data were processed

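The authors deposited 1 table of read counts per gene for each of 12 libraries, over 33602 genes of TAIR10; Trimmomatic, TopHat2 and HTSeq are named, without versions, per the submitters' processing notes. Whether counting used strand is not given in the sources used here. Summary lines (5 per table), 7.60% to 9.70% of a library, were left out of library sizes and tests. Genes passing edgeR's expression filter (minimum count 10, minimum total 15; 21890 genes) entered 1 fit in edgeR 4.0.16 (R 4.3.3) of all libraries, with TMM scaling, robust dispersions, a mean for each group and 6 residual degrees of freedom. Contrasts used the quasi-likelihood test; p-values were Benjamini-Hochberg adjusted over all 21890 genes, with a threshold of 0.05, and the fit was tested on simulated counts. Errors are SE of the log2 fold change; CPM use TMM-scaled library sizes. Alternatives were DESeq2 1.42.0, other size factors, no filter, only the libraries compared, a length-trend correction and leaving out each library. Gene models, promoters and degron codons came from TAIR10.1. Members given in every library passed against both controls in a tissue, in the Col-0 tissue comparison or in the tissue difference, or were among the 5 most abundant. Pathway genes named were TIR1, AFB1, ARF6, ARF8 and up to 4 per list by smallest adjusted p. Members and lists were chosen with earlier results of these data known.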

Additional observations from a re-analysis of the deposited data

Results flagged for a closer look

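The effect of ask1 against ASK1 WT differed between open flowers and buds for 5 members, by an interaction term in edgeR's quasi-likelihood test with Benjamini-Hochberg adjustment. The differences, as the open-flower log2 effect minus the bud effect, were 1.30 for IAA3, 2.05 for IAA14, 2.40 for IAA19 and 1.16 for GH3.3, all of which fell further in buds against ASK1 WT, and -1.79 for GH3.5, which fell in open flowers and did not pass in buds. The ask1 bud libraries were lower than the ASK1 WT bud libraries in 2 of 2 for IAA3, IAA14, IAA19 and GH3.3. For IAA3 the values against Col-0 were -0.51 in buds, which did not pass, and -0.57 in open flowers, and ASK1 WT buds stood 1.48 above Col-0 buds. IAA14, IAA19 and GH3.3 also read higher in ASK1 WT buds than in Col-0 buds, by values that did not pass. The difference against Col-0 was not tested for any member. Of all tested genes, 4.45% differed upward and 2.36% downward. Only the GH3.5 call held under every alternative. In ask1 against ASK1 WT, the stamen filament genes MYB21, MYB24, MYB57 and MYB108 all fell in buds, while in open flowers MYB57 fell, MYB24 rose and the other two did not pass. Their part in these differences was not tested.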

How the results depend on the processing

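The main fit made 120 member calls, and 56 of them held in every alternative. Of 2039 values of these calls under an alternative, 1783 kept their direction and call. A further 256 kept their direction and lost the call, and 0 reversed. Values not called in the main fit were left out, so calls gained under an alternative are not counted here. With only the libraries compared, the members called went from 17 to 6 (ask1 against ASK1 WT, open flowers), from 17 to 5 (ask1 against Col-0, open flowers), from 1 to 3 (ASK1 WT against Col-0, buds), from 19 to 12 (open flowers against buds in ask1) and from 5 to 1 (tissue difference of the ask1 effect); this fit has fewer samples. For ASK1 WT against Col-0 in buds, no low-count filter, the length-trend correction and DESeq2 each gave 2. Leaving out 1 library gave 10 to 21 calls for ask1 against ASK1 WT in buds and 10 to 21 in open flowers, 6 to 20 for ask1 against Col-0 in buds and 9 to 19 in open flowers, 0 to 3 for ASK1 WT against Col-0 in buds and 0 in open flowers, 12 to 22 between tissues in Col-0, 12 to 18 in ASK1 WT and 14 to 21 in ask1, and 1 to 13 for the tissue difference. Where this left 1 library in a group, that library was taken to vary like the other groups. The alternatives for the pathway lists were chosen after seeing the data. DESeq2, the other size factors and the length-trend correction moved the median of all genes by at most 0.0616 on the log2 scale. For the tissue difference it moved by -0.1347 with only the libraries compared and by -0.1255 with no low-count filter. Without Col-0 flower replicate 1 it moved by -0.1338. No paired analysis was possible because the labels carry no replicate numbers and the libraries were numbered in accession order. Members near the floor of 0.135 to 0.203 CPM, such as IAA15, IAA29 and IAA34, could not be tested at this depth.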
